A study of Mus musculus with 41 samples.

Results

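The comparison set the spleens of untreated p53 knockout mice (p53KO, genotype p53-/-NOS2+/+) against those of untreated NOS2 knockout mice (NOS2KO, genotype p53+/+NOS2-/-). Its members were 4 p53KO and 5 NOS2KO arrays of the 41 in the series, chosen by the genotype and treatment in their titles. All 9 mice were C57BL, were given saline as the control treatment and carried the gene that the other group lacked. The labels give no sex, age or promoter for these whole-animal genotypes, and the p53KO replicates are numbered 1, 2, 4 and 5. Other arrays of the series came from wild type (WT) and double knockout (DKO) mice and from mice treated with C. parvum, a killed bacterial preparation that inflames the spleen. The question was how the miRNAs of the resting spleen differ between loss of p53 and loss of NOS2.

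p53 is a transcription factor that arrests or kills cells after DNA damage, and miRNA genes such as the miR-34 family are among its direct targets. NOS2 is the inducible nitric oxide synthase, made mainly by activated macrophages. Nitric oxide can lead to accumulation of p53, and p53 can repress the gene of NOS2. A miRNA is a short RNA that lowers the output of messenger RNAs matching its seed, the bases 2 to 8 from its 5′ end.

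Of 637 probes, 329 had at least 3 values in both groups and were tested, 192 were measured on some of the 9 arrays but not tested, and 116 had no value on any of them. Values are log2 signals after quantile normalization, and a change is p53KO minus NOS2KO. Probe names end in -a or -p, which the sources used here do not explain, so each probe was treated on its own. Missing cells were taken as mostly dim, so the number of values stands in roughly for detection. Some bright probes lacked values too, as let-7d-5p-a, with a highest value of 12.35, did on p53KO replicate 4. The mean number of values was 376.8 ± 8.34 on the p53KO arrays and 379.4 ± 28.96 on the NOS2KO arrays (SD, n = 4 and 5, exact permutation p = 0.889, two-sided). As deposited, array medians over 227 probes common to the series were higher in p53KO, 10.49 ± 0.09 against 10.30 ± 0.05 (SD, n = 4 and 5, two-sided exact permutation p = 0.0159), and the normalization removes this difference. Spleen markers were bright on all 9 arrays, with lymphocyte miR-150-a between 15.03 and 15.73 and granulocyte miR-223-a between 14.21 and 14.80, while liver miR-122a-a had a value on 4 of the 9. Array correlations averaged 0.966 within p53KO, 0.964 within NOS2KO and 0.952 between the groups, and NOS2KO replicate 2 was least like the other group (mean r of 0.925). Both groups lie in array set 2, a division of the arrays read from 1 probe (miR-370-a above 10). All WT controls lie in set 1, so levels of WT given below cannot be told apart from the set.

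The probes that passed the threshold below are named for 3 miRNAs, whose RefSeq mature sequences (GRCm38.p6) are shown so that their seeds can be compared. Which arm a probe reads is not stated, so both arms are printed, with the seed in capitals. miR-193b-3p is added because it was the other mature miRNA in RefSeq with the seed of miR-193a-3p.
miR-193a-5p: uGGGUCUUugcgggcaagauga
miR-193a-3p: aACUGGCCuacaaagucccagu
miR-193b-3p: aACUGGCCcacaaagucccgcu
miR-338-5p: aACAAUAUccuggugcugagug
miR-338-3p: uCCAGCAUcagugauuuuguug
miR-210-5p: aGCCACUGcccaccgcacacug
miR-210-3p: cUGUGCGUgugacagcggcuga
The 2 arms of miR-338 and the 2 of miR-210 have seeds that no other mature miRNA of the table shares, and neither does miR-193a-5p. No seed was common to any 2 of the 3 miRNAs.

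Of the 329 tested probes, 3 passed an adjusted p of 0.05 (0.912%). The miR-193-a probe was higher in p53KO (1 probe, 0.304%), and miR-338-p and miR-210-p were lower (2 probes, 0.608%). The median size of change was 0.28, 11 probes differed by more than 1, and the 95% interval of 215 probes (65.3%) lay within a change of 1 in either direction. At an unadjusted p of 0.05, 61 probes (18.5%) differed, 29 higher (8.81%) and 32 lower (9.73%). The groups did not overlap for 21 probes (6.38%), with p53KO above for 12 (3.65%) and below for 9 (2.74%).

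**Figure D1:**
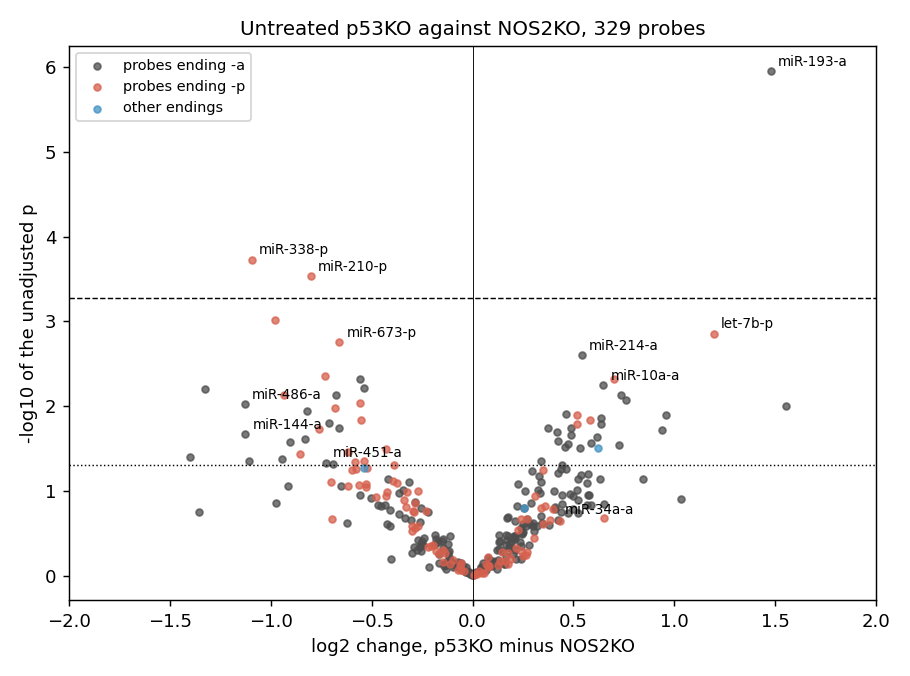
Log2 change of each of the 329 tested probes (x, p53KO minus NOS2KO in saline mice) against -log10 of its unadjusted p (y), with probes ending in -a dark, in -p red and others blue. The dashed line separates the 3 probes with an adjusted p under 0.05, miR-193-a on the right and miR-338-p and miR-210-p on the left, and the dotted line marks an unadjusted p of 0.05.

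miR-193a is a miRNA whose gene is often silenced in human cancers. On the p53KO arrays the miR-193-a probe read 9.85, 9.30, 8.95 and 9.40. On the NOS2KO arrays it read 8.30, 7.40, 7.57, 7.93 and 8.27. Every p53KO array lay above every NOS2KO array, by at least the step from 8.30 to 8.95. The means were 9.37 ± 0.37 (SD, n = 4) and 7.89 ± 0.40 (SD, n = 5). The change was 1.48 ± 0.25 (SE), a fold of 2.79, with a 95% interval from 0.96 to 1.99 and an adjusted p of 0.000365 (limma). With the values as deposited it was 1.65, and without any single array of the 9 it ran from 1.32 to 1.62, past the threshold each time.

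The same probe was measured on all 41 arrays. Among untreated mice the order of means was p53KO at 9.37, WT at 8.66 ± 0.16 (SD, n = 5), DKO at 8.39 ± 0.36 (SD, n = 6) and NOS2KO at 7.89. WT ranged from 8.41 to 8.82 and DKO from 7.89 to 8.89, so these neighbours overlapped, as did DKO and NOS2KO. p53KO stood above the range of WT, and NOS2KO, with a highest value of 8.30, stood below it. No test was made of this order, because WT and 5 of the 6 DKO arrays are of the other array set. Within the groups that hold both sets (untreated DKO, treated DKO and treated NOS2KO), the set moved this probe by 0.09 ± 0.23 (SE, set 2 minus set 1). That estimate rests on few arrays, with 1 of set 2 in untreated DKO and 1 of set 1 in treated DKO.

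miR-338 lies within the gene Aatk and is known for its role in the maturation of oligodendrocytes in the nervous system. The miR-338-p probe read 8.76, 8.87, 7.37 and 7.98 in p53KO. In NOS2KO it read 9.52, 9.77, 8.33, 8.998 and 10.09. The groups overlapped, since NOS2KO replicate 3 lay below p53KO replicates 1 and 2. The change was −1.09 ± 0.26 (SE), from 9.34 ± 0.69 (SD, n = 5) to 8.25 ± 0.70 (SD, n = 4), with an adjusted p of 0.0309 in limma's test. Leaving out 1 array ended this call for NOS2KO replicate 2 (−0.99), NOS2KO replicate 5 (−0.91), p53KO replicate 4 (−0.80) or p53KO replicate 5 (−1.01). WT controls had a mean of 9.10 ± 0.25 (SD, n = 5) and DKO controls of 9.01 ± 0.18 (SD, n = 6), both between the 2 single knockouts.

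miR-210 is the miRNA most widely induced by the hypoxia-inducible factors when cells lack oxygen. Its -p probe read 8.75, 9.15, 9.23 and 8.96 in p53KO. In NOS2KO it read 9.57, 10.05, 9.66, 9.86 and 9.98. The groups did not overlap, with a gap from 9.23 to 9.57. The change was −0.80 ± 0.20 (SE), from 9.83 ± 0.20 (SD, n = 5) to 9.02 ± 0.21 (SD, n = 4), with an adjusted p of 0.0321 (limma). The change lay between −0.71 and −0.87 without any single array, but the call was lost without NOS2KO replicates 2 (−0.75), 4 (−0.79) or 5 (−0.76) or p53KO replicates 1 (−0.71) or 5 (−0.78). WT controls averaged 10.13 ± 0.23 (SD, n = 5) and DKO controls 9.70 ± 0.19 (SD, n = 6), so p53KO was the lowest of the 4 untreated groups. Estimated in the same groups as for miR-193-a, the set moved this probe by −0.43 ± 0.16 (SE), which bears on its levels in WT and DKO and not on the 2 groups compared. The -a probes of miR-210 and miR-338 had no value on any of the 9 arrays, so each of these changes rests on the -p probe alone.

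**Figure D2:**
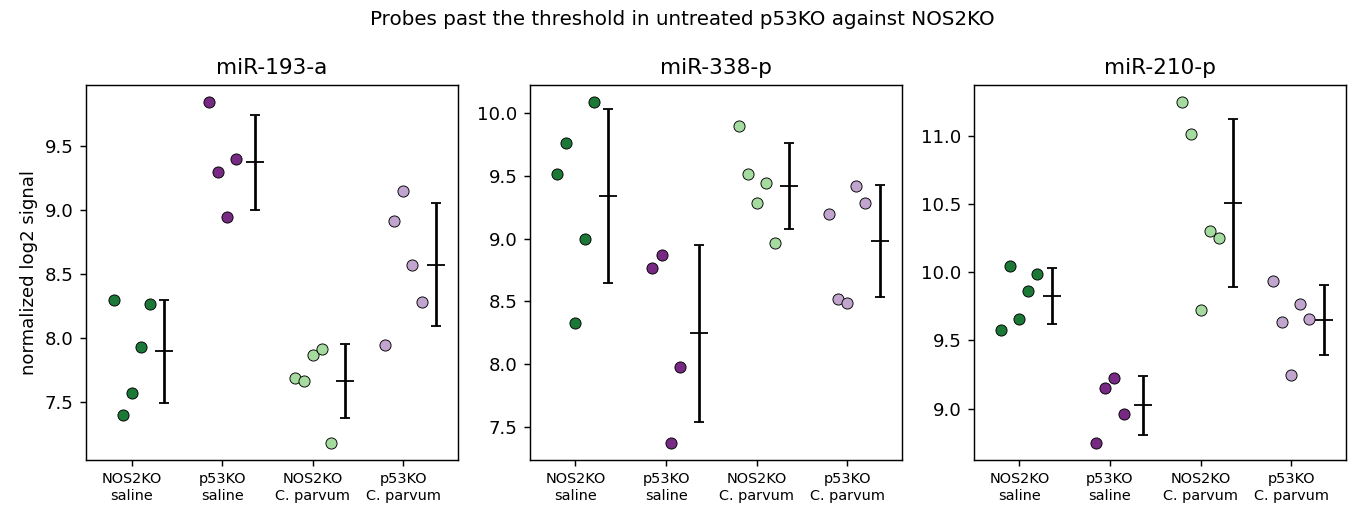
Normalized log2 signal (y) of the 3 probes past the threshold on each array of 4 groups, with points for arrays and bars for the mean and SD. The y axes differ and do not start at 0. For miR-193-a all 4 p53KO saline arrays lie above the 5 NOS2KO saline arrays, for miR-210-p all 4 lie below, and for miR-338-p the groups overlap.

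The treated mice of the same genotypes share no array with the untreated ones and show whether the difference recurred in them. There, 10 of 342 tested probes passed (2.92%), 8 higher (2.34%) and 2 lower (0.585%). Calls numbered 26 with the values as deposited, 0 with the array set as a block and 0 to 31 without 1 array. miR-193-a was higher there as well, with a lowest, median and highest value of 7.95, 8.57 and 9.15 in 5 treated p53KO mice against 7.18, 7.69 and 7.92 in 5 treated NOS2KO mice. The groups did not overlap. The treated change was 0.91 ± 0.24 (SE, adjusted p = 0.0335 in limma's test). miR-210-p was lower, with 9.25, 9.66 and 9.94 in treated p53KO against 9.73, 10.30 and 11.25 in treated NOS2KO, a change of −0.86 ± 0.19 (SE, adjusted p = 0.0128 in limma's test). miR-338-p gave −0.44 ± 0.25 (SE, adjusted p = 0.285 in limma's test). The treated call of miR-193-a was lost without NOS2KO replicate 1, 2 or 5 or p53KO replicate 2, 3 or 4, with changes from 0.77 to 0.92. That of miR-210-p was lost without NOS2KO replicate 1 (−0.67) or 2 (−0.73) or p53KO replicate 2 (−0.85). Of the 5 treated NOS2KO arrays, 2 are of array set 1. With the set as a block the treated change of miR-193-a was 0.87 (adjusted p = 0.14, limma) and that of miR-210-p −0.68 (adjusted p = 0.137, limma), and within set 2 they were 0.92 and −0.44.

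In the test of untreated against treated genotype differences, 0 of 311 probes passed in limma and 15 had an unadjusted p under 0.05 (4.82%). The difference between the untreated and treated change was 0.57 ± 0.35 (SE) for miR-193-a, −0.65 ± 0.36 for miR-338-p and 0.05 ± 0.28 for miR-210-p. Across the 311 probes, which are not independent replicates, Pearson's r between untreated and treated changes was 0.555 and Spearman's rho 0.559. The sign was shared by 69.5% of them. Of the 58 with an unadjusted p under 0.05 in untreated mice, 54 had the same sign in treated mice, and 50 of 53 did where only arrays of set 2 were used.

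**Figure D3:**
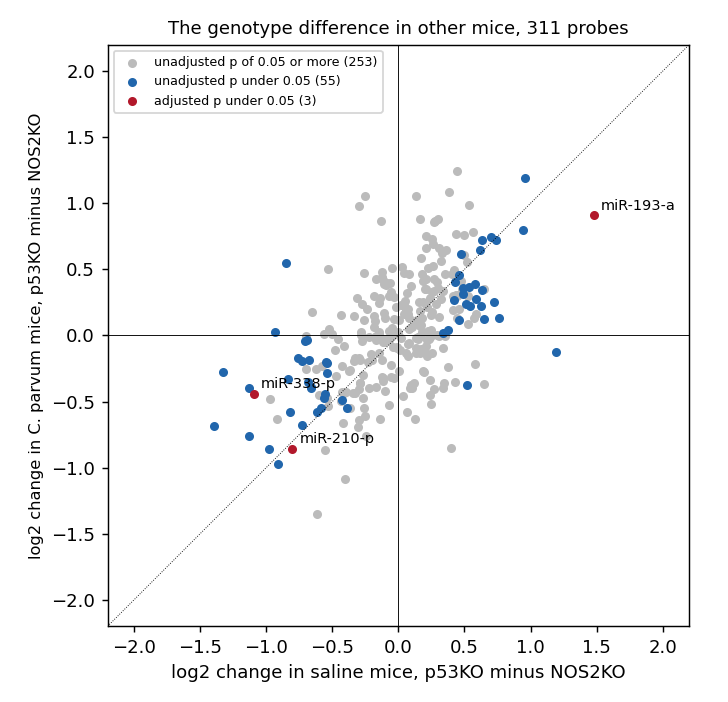
Log2 change p53KO minus NOS2KO in saline mice (x) and in C. parvum mice (y) for 311 probes, with the line of equal change dotted. Red points passed the adjusted threshold in saline mice, blue points had an unadjusted p under 0.05, and 54 of these 58 coloured points have the same sign on both axes.

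Among the miRNAs known to respond to p53, 0 of 13 tested -a probes passed, and 8 changes were positive and 5 negative. The median was 0.08, against 0.05 over all tested probes and 0.10 over all tested -a probes. miR-34a, the best known direct target of p53, read 8.21, 7.74, 7.42 and 8.06 in p53KO and 7.69, 7.13, 7.66, 7.23 and 7.46 in NOS2KO. The groups overlapped and the level was dim in both. Its change was 0.42 ± 0.34 (SE), with a 95% interval from −0.26 to 1.11 and an adjusted p of 0.463 in limma's test. miR-34b and miR-34c had too few values to be tested through their -a probes. miR-192-a and miR-215-a, which share a seed and slow the cell cycle, gave 0.42 ± 0.17 and 0.57 ± 0.31 (SE), neither past the threshold. The 2 probes of miR-22 had changes of opposite sign, −0.68 ± 0.24 (SE) for -a and 0.58 ± 0.23 for -p, also not past it. Sequences are printed to show the seed that miR-192 and miR-215 share.
miR-34a-5p: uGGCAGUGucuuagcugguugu
miR-192-5p: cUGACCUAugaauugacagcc
miR-215-5p: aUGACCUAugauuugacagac

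The miR-29 family restrains collagen and other matrix genes and has 3 mature forms with 1 seed. All 5 of its tested -a probes had positive changes, from 0.26 to 0.47, with a median of 0.33, and 0 passed. Several of the 5 are probes of miR-29b, so they do not count as separate members. At an unadjusted p of 0.05, 2 of 5 were higher, against 8.81% of all tested probes and 23 of the 228 tested -a probes. The family's count was 5 with the values as deposited and 0 without NOS2KO replicate 2. miR-29c-a read 11.36, 11.13, 11.04 and 11.13 in p53KO and 10.92, 10.15, 10.68, 10.86 and 10.84 in NOS2KO. These groups did not overlap, and the change was 0.47 ± 0.21 (SE, adjusted p = 0.205 in limma's test). NOS2KO replicate 2 was the lowest array for each of the 5 probes, and without it the median was 0.23. The 3 -p probes of the family had a median of −0.15. Among them miR-29c-p was opposite in sign to miR-29c-a, at −0.56 ± 0.20 (SE, adjusted p = 0.164 in limma's test).
miR-29a-3p: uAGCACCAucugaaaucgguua
miR-29b-3p: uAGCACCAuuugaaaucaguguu
miR-29c-3p: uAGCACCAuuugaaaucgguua

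The erythroid markers had lower means in p53KO. The mouse spleen makes red cells, and miR-451, miR-144 and miR-486 are characteristic of that lineage. The 3 -a probes had a median of −1.13 and 0 of 3 passed. At an unadjusted p of 0.05 all 3 were lower, against 9.73% of all tested probes and 16 of the 228 tested -a probes. With the values as deposited or after median centring, 2 of 3 were lower. In bulk tissue, fewer cells of a type and less RNA per cell cannot be told apart. miR-486-a read 11.90, 10.71, 10.64 and 10.59 in p53KO. In NOS2KO it read 12.77, 12.82, 10.56, 11.51 and 12.77. NOS2KO replicate 3 was thus as low as the lowest p53KO arrays, and the change was −1.13 ± 0.41 (SE, adjusted p = 0.164 in limma's test). miR-451-a read 12.63, 11.80, 12.09 and 11.43 in p53KO against 12.82, 13.38, 11.83, 12.24 and 13.30 in NOS2KO. Its change was −0.73 ± 0.35 (SE). miR-144-a read 7.99, 6.23, 6.69 and 5.88 in p53KO and 7.98, 7.90 and 7.59 on NOS2KO replicates 1, 2 and 5. It had no value on NOS2KO replicates 3 and 4, the lowest NOS2KO arrays for miR-486-a and miR-451-a. Its change of −1.13 ± 0.47 (SE), which enters the counts and median above, thus leaves out those arrays. p53KO replicate 1 lay above every measured NOS2KO value. The mean level of the list, over miR-451-a and miR-486-a, ranged from 11.01 to 12.26 in p53KO and from 11.20 to 13.10 in NOS2KO. Without NOS2KO replicate 2 the median was −0.75 over 2 tested probes, 1 of them at an unadjusted p of 0.05, and without replicate 3 miR-486-a passed at −1.51 (adjusted p = 0.0376, limma).
miR-451a: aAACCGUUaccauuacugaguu
miR-144-3p: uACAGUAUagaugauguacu

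Stromal and smooth muscle miRNAs lay on the other side. Of 10 tested -a probes 8 had positive changes, the median was 0.58 and 0 passed. At an unadjusted p of 0.05, 5 of 10 were higher, against 8.81% of all tested probes and 23 of the 228 tested -a probes. Without NOS2KO replicate 2, 3 of 9 were higher. Several of the 10 are copies of 1 miRNA, miR-199a, so they do not count as separate members. miR-214-a, whose gene sits beside that of miR-199a-2, read 9.77, 9.81, 9.42 and 9.86 in p53KO. In NOS2KO it read 9.50, 8.92, 9.12, 9.20 and 9.13. NOS2KO replicate 1 lay just above p53KO replicate 4 and the other arrays were apart. The change was 0.54 ± 0.17 (SE, adjusted p = 0.118 in limma's test), and with the values as deposited it was 0.76 and passed (adjusted p = 0.036, limma). The probe named miR-199a*-3p-a read 10.35, 10.19, 10.09 and 10.54 against 10.05, 9.38, 9.61, 9.70 and 9.54, with no overlap and a change of 0.64 ± 0.25 (SE). Smooth muscle miR-143-a (0.62 ± 0.26, SE) and miR-145-a (0.49 ± 0.20, SE) did not pass either. Lower means in p53KO were found for miR-199a-2-5p-ap, another probe of miR-199a (−0.54 ± 0.27, SE), for miR-195-a (−0.13 ± 0.31) and for miR-497-a (−0.07 ± 0.18). The mean level over 8 probes of the list ranged from 10.27 to 10.66 in p53KO and from 9.76 to 10.33 in NOS2KO. Without NOS2KO replicate 2 the median was 0.48.
miR-199a-3p: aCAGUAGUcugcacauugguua
miR-214-3p: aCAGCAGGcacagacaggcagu

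**Figure D4:**
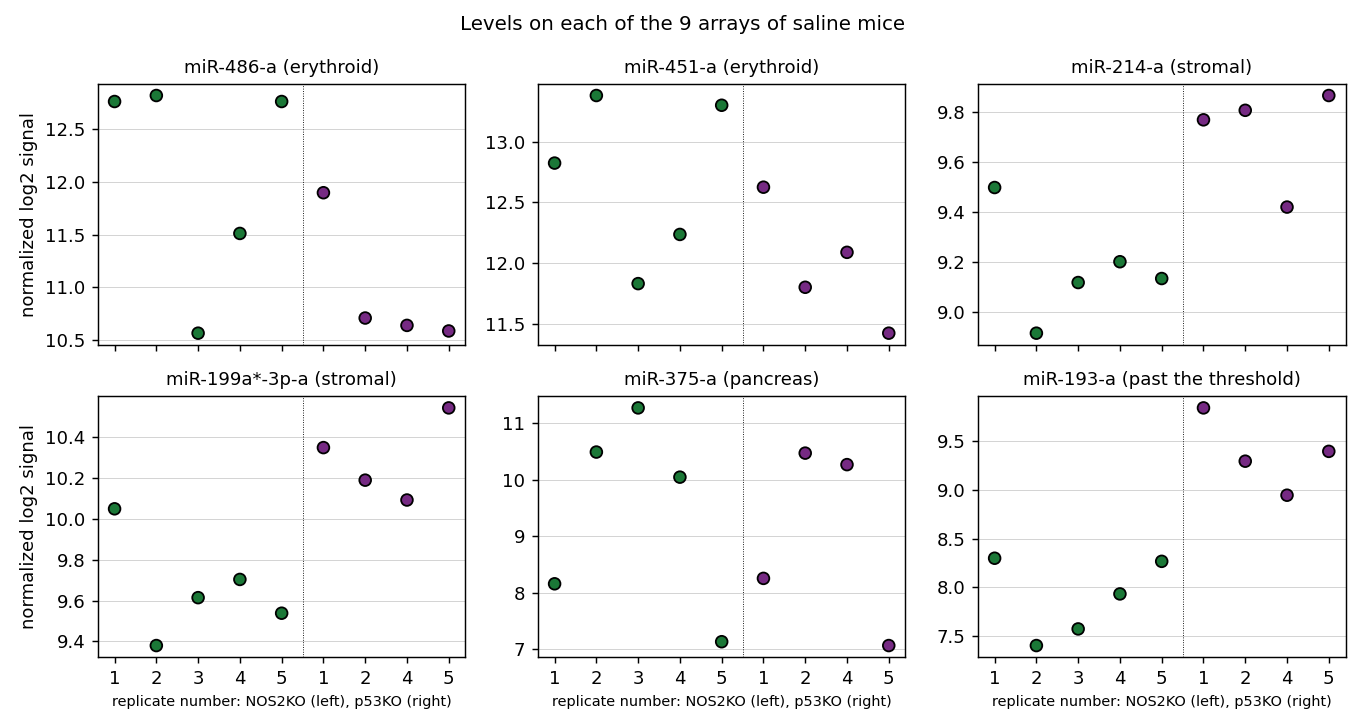
Normalized log2 signal (y) of 6 probes on each of the 9 arrays (x, replicate number), NOS2KO green on the left and p53KO purple on the right. The y axes differ and do not start at 0. miR-214-a and miR-199a*-3p-a are mostly higher in p53KO, the erythroid probes are low on NOS2KO replicate 3, and miR-375-a is high on NOS2KO replicates 2, 3 and 4 and p53KO replicates 2 and 4.

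Pancreas lies against the spleen, and the -a probe of its miRNA miR-375 varied widely within both groups. miR-375-a read 8.25, 10.47, 10.27 and 7.06 in p53KO and 8.16, 10.49, 11.28, 10.05 and 7.13 in NOS2KO. It was high on 2 of 4 p53KO and 3 of 5 NOS2KO arrays, and its change was −0.41 ± 0.85 (SE, adjusted p = 0.834 in limma's test). The miR-375-p probe did not follow it. It read 9.73, 9.70, 9.90 and 9.68 in p53KO and 10.43, 10.96, 10.32, 10.19 and 9.85 in NOS2KO, with a change of −0.60 ± 0.30 (SE, adjusted p = 0.271 in limma's test). p53KO was narrow and low there, and NOS2KO replicate 5 lay within its range. miR-216b-a had values on 3 arrays of each group and gave −1.36 ± 0.95 (SE), and miR-216a-a had them on 1 p53KO and 2 NOS2KO arrays. In p53KO miR-193-a was highest on the arrays 1 and 5, where miR-375-a was low, and in NOS2KO likewise on 1 and 5. Epithelial miR-200c-a had no value on NOS2KO replicates 1 and 5 and gave −1.11 ± 0.51 (SE). The part of erythroid, stromal, pancreatic or epithelial RNA in the 3 calls was not tested.

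Among progenitor and megakaryocyte miRNAs, 21 -a probes were tested, 14 changes were positive and 7 negative, the median was 0.30 and 0 passed. At the unadjusted threshold used for the lists above, 3 of the 21 were higher and 0 lower. The 7 negative changes ran from −0.29 ± 0.39 (SE) for miR-196a-2-a to −0.02 ± 0.21 for miR-221-a. Of the 4 tested -p probes 3 had positive changes, and miR-196b-p gave −0.43 ± 0.27 (SE). miR-10a-a, encoded in the HoxB cluster, read 11.40, 11.20, 11.20 and 11.55 in p53KO. In NOS2KO it read 11.17, 10.21, 10.39, 10.75 and 10.92. The groups were separated by a narrow gap, and the change was 0.65 ± 0.22 (SE, adjusted p = 0.151 in limma's test). miR-10b-a, with the same seed and a gene in the HoxD cluster, gave 0.64 ± 0.25 (SE). In the treated mice these 2 changes were 0.12 and 0.34.
miR-10a-5p: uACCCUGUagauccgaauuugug
miR-10b-5p: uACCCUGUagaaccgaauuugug

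Lymphoid miRNAs had 9 tested -a probes, 6 with positive and 3 with negative changes, a median of 0.25 and 0 calls. miR-181a-5p-a (0.49 ± 0.20, SE), miR-181b-1-a (0.76 ± 0.27) and miR-181c-a (0.53 ± 0.24), which act in the maturation of lymphocytes, each had an unadjusted p under 0.05. That made 3 of 9 higher, against 8.81% of all tested probes and 23 of the 228 tested -a probes. The -p probe of miR-181a-2 gave −0.54 ± 0.26 (SE). miR-150-a of mature lymphocytes gave 0.16 ± 0.30 (SE) and miR-155-a of activated ones 0.25 ± 0.24. The 3 negative changes were −0.26 ± 0.35 (SE) for miR-142-3p-a and −0.17 ± 0.20 for miR-142-5p-a, both found in most blood cells, and −0.11 ± 0.12 for miR-342-a. The 4 myeloid -a probes had a median of −0.03 (0.15 with the values as deposited), with −0.12 ± 0.20 (SE) for miR-223-a. Among 12 inflammation probes the median was 0.23 and 0 passed, with 0.21 ± 0.22 (SE) for miR-21-a and 0.02 ± 0.17 for miR-146-a. Endothelial probes numbered 3 with a median of 0.18. They were miR-126*-5p-a at 0.46 ± 0.18 (SE), miR-126-5p-a at 0.18 ± 0.23 and miR-123-a at 0.04 ± 0.18.

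The other lists held no call among their -a probes. The let-7 family had 11 probes with a median of 0.21, 9 of them positive, and the miR-17-92 cluster with its paralogs 10 with a median of 0.14. The 15 probes of mouse candidates cloned as miR-680 to miR-721 had a median of −0.41, 12 of them negative. The 18 probes of the imprinted Dlk1-Dio3 cluster, 9 of them positive, had a median of −0.09. It turned to 0.12 with the values as deposited, where the median of all tested probes was 0.17. The 7 -p probes of this cluster had a median of −0.18, 6 of them negative. Its smallest p-values belonged to miR-673-p (−0.66 ± 0.20, SE), miR-543-p (−0.73 ± 0.24) and miR-667-a (−0.56 ± 0.19), none past the threshold. miR-673-p passed with median centring, with array weights and without NOS2KO replicate 1 or p53KO replicate 4. The cluster miR-290 to miR-295, typical of embryonic stem cells, had 6 probes, all negative, with a median of −0.16, and the Sfmbt2 intron cluster 7 with a median of 0.09. Lists of nervous system (6 probes, median 0.12), striated muscle (2, median 0.11), epithelium (4, median −0.11), pancreas (2, median −0.88) and miR-34 (2, median 0.18, or −0.01 after median centring) were small. Without NOS2KO replicate 2 the pancreas median was −0.14, over 1 tested probe. As members were chosen with results of these data known, no list was tested, and a median shows only where its probes lay.

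**Figure D5:**
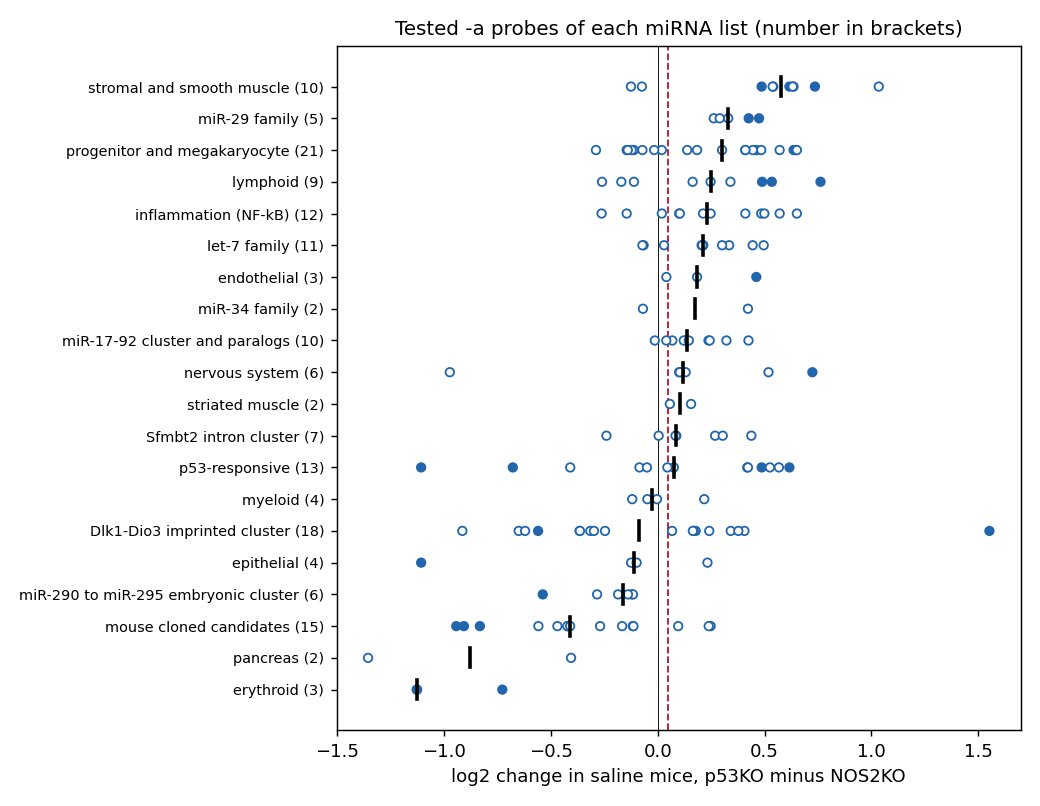
Log2 change (x, p53KO minus NOS2KO in saline mice) of every tested -a probe in each list (y, number of probes in brackets), with the list's median as a black bar and the median of all 329 tested probes, 0.05, as a dashed line. Over the tested -a probes alone the median was 0.10. Filled points had an unadjusted p under 0.05. The erythroid and pancreas lists lie lowest, the former lower here and the latter with the values as deposited or after median centring, and the stromal list lies highest. The pancreas median was −0.14, over 1 tested probe, without NOS2KO replicate 2.

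Probes without a value on some of the arrays, among them all those with too few values for limma, were compared by whether an array gave a value at all. Of 243 probes measured on 1 to 8 of the 9 arrays, 0 passed Fisher's exact test after adjustment, and 7 had an unadjusted p under 0.05. With 4 and 5 arrays the smallest p that Fisher's exact test can give is 0.00794. A probe on its own could therefore not pass the adjustment over 243, and the 0 calls do not show that detection was alike. The miR-188-a probe had a value on all 4 p53KO arrays and on none of the 5 NOS2KO arrays, a pattern no other probe showed in either direction (exact p = 0.00794, adjusted p = 1). Its signal was dim, with a highest value of 6.9.

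The genes of 300 of the 329 tested probes (91.2%) were found in RefSeq, and their positions were looked up after the changes were seen. Both genes knocked out in these mice lie on chromosome 11 (GRCm38.p6), Trp53 at chr11:69580348-69591873 and Nos2 at chr11:78920787-78960226. Mir193a, at chr11:79711969-79712034, has its midpoint 0.771 Mb from that of Nos2. Its neighbour Mir365-2 starts 14431 bp beyond the start of Mir193a, and neither of that gene's probes had a value on the 9 arrays. The erythroid pair Mir144 and Mir451a lies on the other side of Nos2, 0.867 Mb between midpoints. Mir338 is on the same chromosome at chr11:120014765-120014862, 41.1 Mb from Nos2 by midpoints, and Mir210 on another, at chr7:141221384-141221493. Chromosome 11 held 25 tested probes, of which 9 (36%) had an unadjusted p under 0.05, against 48 of 275 (17.5%) on other chromosomes. These 9 were 3 higher and 6 lower, and probes of 1 gene or transcript are among them, as for miR-22, so they are a description and not a test.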

How the data were processed

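RNA from mouse spleen was converted to biotin-labelled cDNA and hybridised to one-channel miRNA arrays, per the labels' protocols. The deposited values, 637 probes by 41 arrays, are taken as log2 because of their range, which no source used here states. Their background correction and normalization are not given either. Values were quantile-normalized over the 41 arrays, with missing cells ranked below measured ones and left missing, so changes are relative to the bulk of probes. limma 3.58.1 in R 4.3.3 fitted 8 group means per probe with moderated variances, and p-values were adjusted by Benjamini-Hochberg over all tested probes (threshold 0.05, at least 3 values per group). The number of arrays limits the precision. The procedure was tested on simulated data.

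The comparison, its lists and its tests were chosen with earlier results of these data known. Named probes are those past the threshold, the -a probes of preset miRNAs, and up to 3 probes with the smallest p in each list. A list name without a letter covers its lettered forms. Alternatives covered scaling, filters, array set, array weights, replicate numbers and single arrays. Sequences are from RefSeq (GRCm38.p6).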

Additional observations from a re-analysis of the deposited data

Results flagged for a closer look

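Within a group, an array was singled out where its gap to the nearest other array took up most of the group's range (Dixon's criterion at 95%). This happened for 10 of 169 sets of values (5.92%), close to the 1 in 20 that chance gives. Erythroid miR-486-a stood high on p53KO replicate 1, at 11.90 against a next value of 10.71. p53-responsive miR-215-a stood low on p53KO replicate 2, at 6.55 against 8.20. NOS2KO replicate 2 was low for miR-146b-a (12.09, next 12.49), miR-29b-a (10.92, next 11.43) and miR-123-p (8.68, next 9.30). The -p probe of miR-29c was low on p53KO replicate 4 (7.84, next 8.43) and on NOS2KO replicate 3 (8.41, next 8.92). Bright probes whose other values were tied after normalization were miR-92-1-a, low on p53KO replicate 2 (15.30, next 15.42), and miR-290-a, low on NOS2KO replicate 1 (15.55, next 15.98). Embryonic miR-291b-3p-a was low on p53KO replicate 1 (8.71, next 9.42).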

How the results depend on the processing

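The number of probes past the threshold was 3, and it was 5 with median centring, 5 with array weights, 5 with missing cells set to a floor, 1 with quantile normalization over the 9 arrays compared, 1 with those 9 arrays alone in the fit, and 1 to 8 without any 1 array (8 without NOS2KO replicate 1, 1 without NOS2KO replicate 2 or p53KO replicate 5, 7 without p53KO replicate 4). It was 4 as deposited, 3 with the set as a block and 2 within set 2. miR-193-a passed in each of these settings, with 1.32 to 1.62 without 1 array. miR-338-p lost its call with quantile normalization over the 9 arrays (−1.13), in the fit of those arrays alone (−1.09), within set 2 (−1.09) and with array weights (−0.77), and ran from −1.35 to −0.80 without 1 array. miR-210-p lost it with quantile normalization over the 9 arrays (−0.88) and in the fit of those arrays alone (−0.80), and ran from −0.87 to −0.71. The treated count of 10 became 26 as deposited, 0 with the set as a block, 1 within set 2, and 0 to 31 without 1 array (31 without NOS2KO replicate 3, 0 without NOS2KO replicate 1 or 2 or p53KO replicate 2). The count for the difference between untreated and treated changes was 0 to 1 without 1 array (1 without treated NOS2KO replicate 5). For the presence of a value, 0 probes passed, in a test that could not call a lone probe, and 1 was on all arrays of a group and none of the other. Of 83 named probes that did not pass, 21 changed sign under at least 1 alternative, never past the threshold, and 6 passed under at least 1. The causes were not tested.

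The labels number the replicates of both groups. Same-numbered arrays had correlations of deviations of 0.37, 0.40, −0.03 and 0.34 in untreated and −0.31 to 0.27 in treated mice. Arrays with different numbers ran from −0.50 to 0.42 in untreated and −0.27 to 0.44 in treated mice. Untreated arrays shared some structure across the groups, since p53KO replicates 1 and 5 had 0.24 to 0.38 with NOS2KO replicates 1 and 5. The number alone is not shown to make pairs. With the replicate block, 0 probes passed in untreated (79 at an unadjusted p of 0.05) and 0 in treated mice (35 unadjusted). The changes in that fit were 1.40 for miR-193-a, −1.35 for miR-338-p and −0.84 for miR-210-p. They equal those without NOS2KO replicate 3, since p53KO has no array of that number and the block takes replicate 3 out of the contrast.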

Other observations

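Several further changes were picked after their values were seen, and but for let-7b-p they are not among the named probes. None passed an adjusted p of 0.05 in limma's test in the fit reported. miR-376a-3p-a of the Dlk1-Dio3 cluster gave 1.55 ± 0.51 (SE) with 3 values in each group and no overlap. The members of that cluster with smaller p, given above, were lower in p53KO. miR-615-a gave −1.40 ± 0.66 (SE) and miR-321-a −1.33 ± 0.46 (SE). The fourth-ranked probe, miR-760-p, gave −0.98 ± 0.27 (SE, adjusted p = 0.0801 in limma's test) and −0.86 in treated mice. It passed with median centring (adjusted p = 0.0455, limma) and without NOS2KO replicate 1, NOS2KO replicate 5 or p53KO replicate 4. let-7b-p gave 1.19 ± 0.34 (SE, adjusted p = 0.0915 in limma's test) and −0.12 in treated mice, a difference of 1.32 ± 0.50 (SE, adjusted p = 0.633 in limma's test). It passed without NOS2KO replicate 1 (1.38) or 5 (1.40), but not without NOS2KO replicate 2. In NOS2KO this probe had no value on replicate 3 and was dim on replicate 2, at 5.29 against 6.545 to 7.13 on the others. The tested -p probes of miR-7 had positive changes, 0.70 ± 0.23 (SE) for miR-7-1-p and 0.52 ± 0.20 for miR-7-2-p. miR-139 had its 2 probes on opposite sides, with 0.94 ± 0.38 (SE) for -a and −0.68 ± 0.25 for -p, which passed without p53KO replicate 4 (−0.97).

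The 228 tested -a probes had a median change of 0.10 and the 98 -p probes of −0.14. Split by level into 3 classes of tested probes, the -p medians were −0.09 in the dimmest class, −0.10 in the middle one and −0.30 in the brightest, where 15 such probes were tested, and the -a medians were 0.06, 0.16 and 0.13. Of 63 names with both probes tested, the -p change was the lower one for 29.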
